A study of Mus musculus with 96 samples.

Results

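The interferon-gamma inducible GTPases described here are 10 genes measured in mouse liver, 6 of the immunity-related GTPase family (Igtp, Irgm1, Irgm2, Iigp1, Ifi47 and Tgtp1) and 4 guanylate-binding proteins (Gbp2, Gbp3, Gbp6 and Gbp7), out of 14817 genes tested. They were chosen with the diet differences of these same arrays known, so every diet difference given for them is a description and carries no test. Probe sets, the short probe collections that each report 1 transcript on the array, were assigned by gene symbol. All 10 genes had at least 1, and all 14 of their probe sets passed the filter on low signals. Tgtp1 had no probe set of its own. It was read only through a probe set shared with its near copy Tgtp2 and is written Tgtp1/Tgtp2, since the signal of the pair cannot be divided.

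Liver RNA from 96 male mice was hybridised to Affymetrix mouse expression arrays, 1 mouse to an array. The inbred strains were C57BL6/J, DBA/2J, CBA/J, C3H/HeJ and 129S1/SvImJ, and B6C3F1/J mice are the first-generation offspring of C57BL6/J and C3H/HeJ. Each strain was divided into 8 control and 8 calorie-restricted mice. All animals arrived at 6 weeks of age, lived in single cages and ate 84 kcal per week of an AIN93M-based diet until 8 weeks of age, when the control diet or a diet with 25% fewer calories began. Tissue was collected at 22 weeks of age, so the groups differed in strain and in 14 weeks of diet. The labels name no mutation, transgene or drug treatment, and mutations that a strain carries as part of its background were not examined. The labels describe whole liver, in which fewer cells of a type and less RNA per cell cannot be told apart.

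Interferon-gamma, released mainly by T cells and natural killer cells, binds a receptor of the subunits Ifngr1 and Ifngr2 and switches on genes through DNA elements called GAS, while the type I interferons act mainly through elements called ISRE. Immunity-related GTPases gather on the vacuoles in which parasites and some bacteria live and help to break them open, and the regulatory members Igtp, Irgm1 and Irgm2 keep the effector members Iigp1, Ifi47 and Tgtp1 inactive on the cell's own membranes. Guanylate-binding proteins gather on the same vacuoles and on bacteria, and are among the most strongly interferon-induced proteins known. Liver macrophages, endothelial cells and hepatocytes can all make these GTPases when exposed to interferon.

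The bases upstream of 7 of these genes and of Tgtp2 are shown first because GAS and ISRE letters lie in them in different arrangements. The sequences are the 110 bases before the annotated start site, positions -110 to -1, on the strand of the gene, from RefSeq on GRCm38.p6. Matches are listed for 8 members and Tgtp2, found by symbol. Gbp6 had no window, and the upstream bases of Iigp1 are not reported here. Capitals mark each match to TTCNNNGAA (GAS, whose pattern reads the same on both strands) or to GAAANNGAAA (ISRE, searched on both strands and written TTTCNNTTTC where it lies reversed). Igtp (chr11:58199446-58199555, plus strand), Irgm2 (chr11:58214867-58214976, plus strand), Tgtp1 (chr11:48992247-48992356, minus strand) and Tgtp2 (chr11:49064213-49064322, minus strand) each hold a GAS, 2 further bases and then an ISRE.
Igtp: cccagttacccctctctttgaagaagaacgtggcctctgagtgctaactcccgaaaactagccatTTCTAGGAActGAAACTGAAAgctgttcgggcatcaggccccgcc
Irgm2: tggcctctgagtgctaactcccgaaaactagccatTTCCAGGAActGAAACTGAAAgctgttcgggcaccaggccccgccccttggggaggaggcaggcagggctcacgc
Tgtp1: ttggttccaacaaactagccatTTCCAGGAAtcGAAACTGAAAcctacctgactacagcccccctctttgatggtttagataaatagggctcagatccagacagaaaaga
Tgtp2: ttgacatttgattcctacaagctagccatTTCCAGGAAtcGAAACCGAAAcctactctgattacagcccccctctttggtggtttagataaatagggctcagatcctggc

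In Igtp the GAS letters began at position -45 and the ISRE letters at -34, in Irgm2 at -75 and -64, in Tgtp1 at -88 and -77, and in Tgtp2 at -81 and -70. The longest run of identical bases between the upstream sequences was 55 for Igtp and Irgm2, 27 for Tgtp1 and Tgtp2, and 14 for Igtp and Tgtp1. Among all 32851 promoter windows of the same 250 upstream bases, 5 windows (0.0152%) held a GAS followed after 2 bases by an ISRE on either strand. These 4 were among them, and the fifth belongs to Gm12185, a further gene of the same family on chromosome 11. The arrangement was noticed after the sequences had been read, so its rarity is a description.

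Irgm1 (chr11:48871421-48871530, minus strand), Gbp2 (chr3:142620553-142620662, plus strand), Gbp3 (chr3:142559934-142560043, plus strand) and Gbp7 (chr3:142530226-142530335, plus strand) are shown because their letters are arranged differently.
Irgm1: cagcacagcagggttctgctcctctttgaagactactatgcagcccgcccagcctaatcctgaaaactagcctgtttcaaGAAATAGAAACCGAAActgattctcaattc
Gbp2: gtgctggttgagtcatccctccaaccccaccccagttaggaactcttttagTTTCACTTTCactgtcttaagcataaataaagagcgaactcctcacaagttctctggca
Gbp3: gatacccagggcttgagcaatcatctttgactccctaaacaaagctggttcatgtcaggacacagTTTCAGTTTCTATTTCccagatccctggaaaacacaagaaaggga
Gbp7: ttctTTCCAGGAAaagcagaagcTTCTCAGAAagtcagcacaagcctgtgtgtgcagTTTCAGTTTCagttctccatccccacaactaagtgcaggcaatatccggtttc

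Irgm1 held 2 overlapping ISRE matches, at -30 and -24, and no GAS. Gbp2 held 1 reversed ISRE at -59. Gbp3 held 2 overlapping reversed ISRE matches at -45 and -39 before its first start site and neither element before its second. Gbp7 held GAS matches at -106 and -87 and a reversed ISRE at -53, and Ifi47 held neither element in its 250 upstream bases. Across all windows a GAS match was present in 7.02%, an ISRE match in 2.98% and both in 0.332%. A match describes letters only, and their absence from a window says nothing about binding of a factor.

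**Figure D1:**
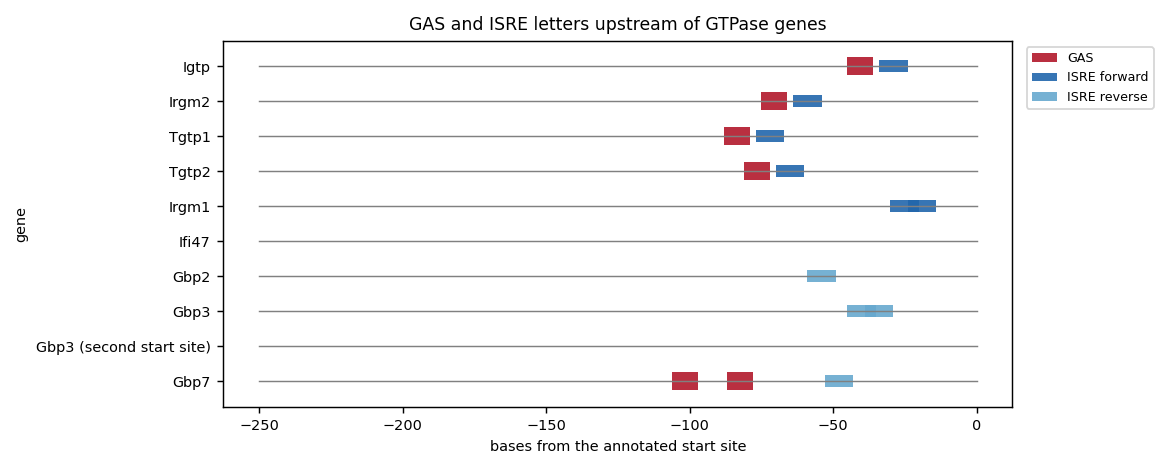
Matches to the GAS and ISRE letters in the 250 bases before each annotated start site, with the distance from the start site in bases on the horizontal axis and 1 line for each start site of a gene. Igtp, Irgm2, Tgtp1 and Tgtp2 show a GAS followed after 2 bases by an ISRE, while Ifi47 and the second start site of Gbp3 show no match. Gbp6 and Iigp1 are not shown.

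Averaged over the 6 strains, 9 of the 10 genes were lower in restricted than in control liver. The median of their differences, restricted minus control on the log2 signal scale, was -0.56 against 0.07 over all genes tested. In the fit across all genes (limma, Benjamini-Hochberg adjusted p under 0.05 counted as a call), 6 of the 10 were called lower and 0 higher, where 12.4% of all genes were called lower and 15.2% higher. Because the genes were chosen on this contrast, nothing is read from that count. Gbp2 was the gene that was not lower on average. At an unadjusted p under 0.05 the counts were 7 and 0. The count of 6 called lower became 6 or 7 when each of the 96 arrays was left out in turn.

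The array-wide signal bears on these comparisons. The median log2 signal lay between 6.21 and 7.50 on 94 arrays and above 8 on the other 2, B6C3F1/J control replicate 2 and DBA/2J restricted replicate 6. Array medians of CBA/J averaged 7.29 under restriction and 6.52 under the control diet (two-sided exact permutation p = 0.000155, the smallest that 12870 splits allow; adjusted over 6 strains 0.000932), and in the other strains the adjusted p lay between 0.296 and 0.653. The labelled tissue held strong hepatocyte signal on every array. Over the 48 control arrays the summed linear signal of 5 hepatocyte markers ran from 201000 to 928000, and that of 9 Kupffer cell markers, the markers of resident liver macrophages, from 5490 to 35700. Over the 48 restricted arrays the hepatocyte sum ran from 173000 to 1520000 and the Kupffer sum from 7830 to 45000. On average 4 of 5 hepatocyte and 1 of 9 Kupffer markers were called higher under restriction and 0 of either lower, and 0 of 5 T cell and 0 of 8 natural killer cell markers were called in either direction (adjusted p in limma). Unadjusted, the counts of those called higher were 4 Kupffer, 1 T cell and 2 natural killer markers, and 0 of each were lower. On most arrays 7 of the 8 natural killer markers lay below the array median.

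Among the regulatory members, Igtp (probe set 1417141_at), also known as Irgm3, is described first. Its restricted minus control difference averaged -0.90 ± 0.09 (SE, 96 mice), a level 1.86-fold lower, and it was negative in 6 of 6 strains. In C57BL6/J, control mice had log2 signals from 11.21 through a median of 12.08 to 12.72, and restricted mice from 9.89 through 10.24 to 10.69. All restricted C57BL6/J mice therefore lay below all controls, by -1.73 ± 0.21 on average. In DBA/2J the controls ran from 11.38 through 11.74 to 12.41 and the restricted mice from 10.15 through 10.69 to 11.25, again without overlap, with a difference of -1.15 ± 0.21. In B6C3F1/J the controls ran from 10.61 through 11.29 to 11.47 and the restricted mice from 9.89 through 10.56 to 10.67, and 6 of 8 restricted mice lay below the lowest control. The B6C3F1/J difference was -0.85 ± 0.21.

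In the remaining strains Igtp overlapped between diets, with a few restricted animals high and most low. In C3H/HeJ the controls ran from 10.81 through 11.59 to 12.02 and the restricted mice from 9.82 through 10.62 to 12.21, with 6 of 8 restricted mice below every control and 1 above every control. In CBA/J the controls ran from 10.99 through 11.27 to 11.65 and the restricted mice from 10.07 through 10.64 to 12.32, with the same division of 6 below and 1 above. In 129S1/SvImJ the controls ran from 10.48 through 10.79 to 10.93 and the restricted mice from 9.89 through 10.14 to 11.44, with 6 below every control and 2 above. The differences were -0.78, -0.52 and -0.36 in C3H/HeJ, CBA/J and 129S1/SvImJ, each ± 0.21. The Igtp call in C3H/HeJ was lost without any of 7 arrays left out singly, and that in CBA/J without any of 9.

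**Figure D2:**
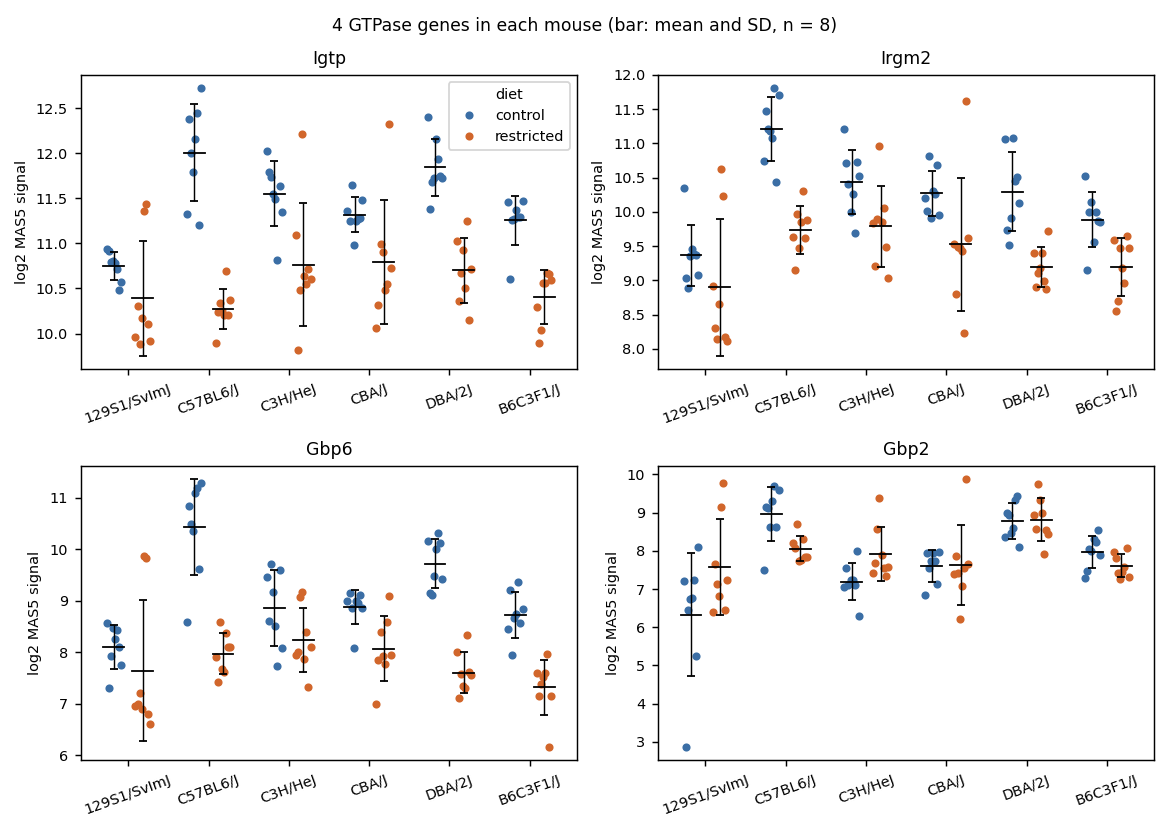
Log2 MAS5 signal of Igtp, Irgm2, Gbp6 and Gbp2 in each of the 96 mice, by strain and diet, with the mean and SD of the 8 mice of a group. Restricted C57BL6/J mice lie below their controls for Igtp, Irgm2 and Gbp6, while 2 restricted 129S1/SvImJ mice lie above all controls of that strain for Igtp and Gbp6.

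Irgm2 (1417793_at) and Irgm1 (1418825_at), the other regulatory members, were lower in all 6 strains, by -0.85 ± 0.11 and -0.64 ± 0.08 on average. In C57BL6/J, Irgm2 ran from 10.43 through 11.19 to 11.81 in controls and from 9.15 through 9.75 to 10.30 in restricted mice. Irgm1 ran in the same groups from 10.21 through 11.12 to 11.57 and from 9.49 through 9.73 to 9.91. Neither gene overlapped between the diets in C57BL6/J, where the differences were -1.47 ± 0.28 for Irgm2 and -1.32 ± 0.20 for Irgm1. In DBA/2J 7 of 8 restricted mice lay below every control for each gene, with differences of -1.10 and -0.84. The smallest Irgm1 difference was -0.27 in C3H/HeJ and the smallest Irgm2 difference -0.47 in 129S1/SvImJ. That Irgm2 value was -0.72 without restricted replicate 5 of the strain.

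The effector members also had negative averaged differences. Iigp1, also called Irga6, differed by -0.53 ± 0.08 on its brighter probe set (1419043_a_at) and by -0.81 ± 0.09 on the other (1419042_at). In DBA/2J it ran from 15.29 through 15.46 to 15.54 in controls and from 14.18 through 14.64 to 15.06 in restricted mice, without overlap, a difference of -0.83 ± 0.20. Its C57BL6/J difference was -0.98 ± 0.20, with 5 of 8 restricted mice below every control. In CBA/J the probe sets of Iigp1 disagreed, at 0.02 on the brighter and -1.69 on the other, so no CBA/J value is singled out. In B6C3F1/J the difference was -0.50, and it was -0.79 without control replicate 2, whose Iigp1 signal was 12.62 against a control median of 14.92.

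Ifi47 (1417292_at), an effector also called Irgd, differed by -0.58 ± 0.10 on average. In C57BL6/J it ran from 9.73 through 10.99 to 11.59 in controls and from 8.84 through 9.03 to 9.71 in restricted mice, so the diets did not overlap and the difference was -1.73 ± 0.25. In DBA/2J the difference was -1.06 ± 0.25, with 7 of 8 restricted mice below every control. In C3H/HeJ, CBA/J and B6C3F1/J it was -0.03, -0.12 and -0.21, each smaller than its SE of 0.25. The 129S1/SvImJ difference of -0.35 became -0.56 without restricted replicate 5 and -0.18 without restricted replicate 7.

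The shared Tgtp1/Tgtp2 probe set (1449009_at) showed a sign that depended on the strain, with 3 strains lower and 3 higher and an average of -0.40 ± 0.17. In C57BL6/J it ran from 9.06 through 10.96 to 12.01 in controls and from 8.46 through 8.78 to 9.75 in restricted mice, a difference of -1.77 ± 0.40, and 5 of 8 restricted mice lay below every control. In B6C3F1/J it ran from 9.05 through 9.33 to 9.71 in controls and from 8.19 through 8.59 to 8.997 in restricted mice, without overlap and with a difference of -0.77 ± 0.40. The positive values were 0.07, 0.34 and 0.45 in 129S1/SvImJ, C3H/HeJ and CBA/J. They turned on single mice, being -0.33 without 129S1/SvImJ restricted replicate 6, -0.0019 without C3H/HeJ restricted replicate 4 and 0.01 without CBA/J restricted replicate 7. The average was not called, and it was called when any of 9 arrays was left out.

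Gbp6 (1438676_at) had the largest averaged difference of the 10 genes, -1.31 ± 0.13, a level 2.48-fold lower, and it was negative in 6 of 6 strains. In C57BL6/J it ran from 8.60 through 10.67 to 11.30 in controls and from 7.42 through 8.00 to 8.58 in restricted mice. In DBA/2J it ran from 9.12 through 9.75 to 10.31 in controls and from 7.11 through 7.57 to 8.35 in restricted mice. The diets did not overlap in either strain, and control levels were 5.52-fold and 4.34-fold those of restricted mice. In B6C3F1/J the controls ran from 7.94 through 8.70 to 9.36 and the restricted mice from 6.17 through 7.45 to 7.98, with 7 of 8 below every control and a difference of -1.40 ± 0.32. In C3H/HeJ and CBA/J the differences were -0.63 and -0.80, and the CBA/J call was lost without any of 10 arrays. A second Gbp6 probe set (1447927_at) differed by -1.75 ± 0.22 on average. The probe sets disagreed in size in 129S1/SvImJ, at -0.45 and -1.65, and in CBA/J, at -0.80 and -1.93.

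The other guanylate-binding proteins had smaller averaged differences than Gbp6, and Gbp7 was lower in 4 of 6 strains, Gbp3 in 3 and Gbp2 in 2. Gbp3 (1418392_a_at) averaged -0.17 ± 0.13 and Gbp7 (1425156_at) -0.16 ± 0.11, with -0.32 ± 0.14 on the second Gbp7 probe set (1434380_at). Both were lower in C57BL6/J, by -1.26 ± 0.31 for Gbp3 and -0.92 ± 0.26 for Gbp7. In C57BL6/J, Gbp3 ran from 7.54 through 9.21 to 9.44 in controls and from 7.23 through 7.67 to 8.30 in restricted mice, and the diets overlapped through 1 low control, replicate 1. The Gbp7 call in C57BL6/J was lost without control replicate 6 or control replicate 8. In the other 5 strains the differences lay between -0.15 and 0.24 for Gbp3 and between -0.38 and 0.33 for Gbp7.

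Gbp2 (1418240_at) averaged 0.13 ± 0.16, and -0.05 ± 0.13 on its second probe set (1435906_x_at). In 129S1/SvImJ it ran from 2.87 through 6.76 to 8.09 in controls and from 6.395 through 7.19 to 9.78 in restricted mice, a difference of 1.25 ± 0.38. That was the 1 member called higher in any strain, where 2.79% of all genes were called higher in 129S1/SvImJ. The groups overlapped widely. The difference was 0.76 without control replicate 2, the mouse at 2.87, and the call was lost without any of 5 arrays (control replicates 2 and 7 and restricted replicates 2, 5 and 6). In C57BL6/J the Gbp2 difference was -0.89 ± 0.38, the same sign as the other 9 genes in that strain.

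**Figure D3:**
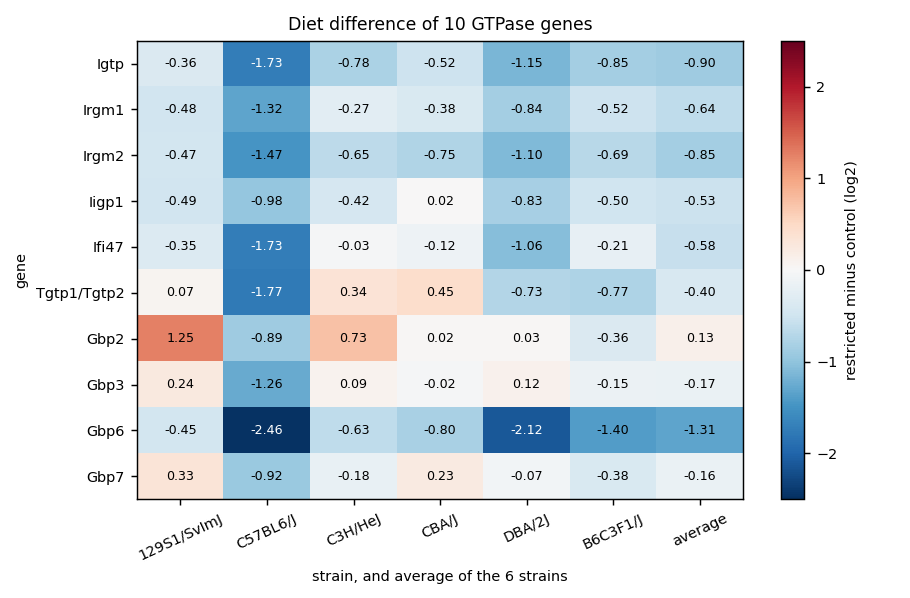
Restricted minus control difference in log2 signal for the 10 genes (lines) in each strain and averaged over the strains (columns). The C57BL6/J column is negative for all 10 genes, from -0.89 to -2.46, while 129S1/SvImJ, C3H/HeJ, CBA/J and DBA/2J mix signs.

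Counted by strain, 9 members were called lower in C57BL6/J and 6 in DBA/2J, where 1.86% and 4.45% of all genes were. In CBA/J 3 were called lower against 15.6% of all genes, in B6C3F1/J 2 against 1.26%, in C3H/HeJ 1 against 0.85%, and in 129S1/SvImJ 0 (2 unadjusted) against 2.47%. The log2 signal of the 3' Gapdh control probe set minus that of the 5' one, a sign of RNA quality, differed by diet in CBA/J and, through 1 array, in DBA/2J. In CBA/J it ran from -0.48 to -0.31 in controls and from -0.28 to 0.12 in restricted mice, without overlap. In DBA/2J it ran from -0.54 to 0.13 in controls and from -0.46 to 0.03 in 7 restricted mice, with replicate 6 at 2.51, which took the group means to -0.29 and 0.10. In the other 4 strains the restricted minus control difference of the group means lay between -0.07 and -0.0063. The number of members called lower in DBA/2J was 6 without restricted replicate 6 as well, and the part of this measure in the CBA/J values was not tested. By sign alone all 10 were lower in C57BL6/J and in B6C3F1/J, 8 in DBA/2J, 7 in C3H/HeJ and 6 in each of CBA/J and 129S1/SvImJ. The median of the members' differences was -1.39 in C57BL6/J and -0.84 in DBA/2J, against -0.02 and 0.03 over all genes. In CBA/J it was -0.07 against 0.31 over all genes, in a strain whose array medians moved with diet, and 0 members were called lower there once the array median entered the fit.

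Complete separation of restricted from control mice was seen for 5 members in C57BL6/J (Igtp, Irgm1, Irgm2, Ifi47 and Gbp6), where 1.31% of all genes had it. It was seen for 3 in DBA/2J (Igtp, Iigp1 and Gbp6) against 0.54%, and for Tgtp1/Tgtp2 in B6C3F1/J against 0.148%. The members were chosen with these differences in view, so the counts are given without a reading. In C57BL6/J the Kupffer marker sum ran from 8510 through a median of 20900 to 35700 in controls and from 8710 through 12900 to 24400 in restricted mice. The median difference of the 9 markers was -0.60 and 0 of them were called. Other marker lists were also lower by median in C57BL6/J, at -0.64 for 2 neutrophil, -0.57 for 5 T cell, -0.44 for 4 B cell, -0.32 for 5 hepatocyte and -0.20 for 8 natural killer markers, with 0 called. Endothelial, stellate and cholangiocyte markers had medians of 0.35, 0.29 and 0.17, and dendritic cell markers -0.05, with 1 endothelial marker called higher and 1 stellate marker called lower. The part of these markers in the members' difference was not tested. In DBA/2J, where 6 members were called lower, the Kupffer sum ran from 11400 through 17100 to 23300 in controls and from 15200 through 18600 to 25300 in restricted mice. The part of the Kupffer sum in the members' difference was not tested in DBA/2J either.

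Strain by diet interaction was called for 7 of the 10 members (not Irgm2, Iigp1 or Gbp7), where 23.9% of all genes were called. Without CBA/J the interaction was called for 3, namely Igtp, Ifi47 and Gbp6, where 1.55% of all genes were called. Strain differences on the control diet were called for 10 of 10 members, where 43.7% of all genes were called. On the control diet C57BL6/J had the highest mean of 8 members, and DBA/2J that of Iigp1 and Gbp7. The SD of the 6 strain means was larger in control than in restricted liver for all 10 genes, for example 0.83 against 0.34 for Gbp6 and 0.76 against 0.29 for Tgtp1/Tgtp2. For Iigp1 these SDs were close, at 0.36 and 0.35. The members were chosen with the diet differences known, so nothing is read from this narrowing, and the share over all genes is not given here.

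Ordered by mean, Igtp in control liver was 12.003 ± 0.54 (SD, n = 8) in C57BL6/J, 11.85 ± 0.32 in DBA/2J, 11.55 ± 0.36 in C3H/HeJ, 11.32 ± 0.19 in CBA/J, 11.25 ± 0.28 in B6C3F1/J and 10.75 ± 0.15 in 129S1/SvImJ. Only the step from B6C3F1/J to 129S1/SvImJ exceeded the larger SD of the neighbours. In restricted liver the Igtp means ran from 10.79 in CBA/J to 10.27 in C57BL6/J and no neighbouring step exceeded it, and C57BL6/J, highest on the control diet, was lowest. Gbp6 in control liver was 10.44 ± 0.93 in C57BL6/J and 9.73 ± 0.48 in DBA/2J, then 8.88 in CBA/J, 8.87 in C3H/HeJ, 8.72 in B6C3F1/J and 8.10 in 129S1/SvImJ. For Gbp6 the steps below DBA/2J and below B6C3F1/J exceeded the larger SD. Over the 10 genes, 14 of 50 neighbouring steps did so on the control diet and 2 of 50 on the restricted diet. The SDs that set this limit also differed by diet. For Igtp the SD was larger in restricted than in control liver in every strain but C57BL6/J, for example 0.64 against 0.15 in 129S1/SvImJ.

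By mean alone, the first-generation cross lay outside the range of its parents for most members, a comparison made without a test or regard to the spread. On the control diet B6C3F1/J had a lower mean than both C57BL6/J and C3H/HeJ for 6 members, lay between them for 3 and above both for Gbp7. On the restricted diet the counts were 5, 4 and 1. The share over all genes is not given here, so nothing is read from these counts. Gbp6, for example, was 8.72 ± 0.44 (SD) in B6C3F1/J control liver against 10.44 ± 0.93 in C57BL6/J and 8.87 ± 0.74 in C3H/HeJ. Its step below C3H/HeJ was smaller than either SD. The Iigp1 control mean of 14.62, below 14.78 and 14.77 in the parents, included B6C3F1/J control replicate 2 at 12.62. By median Iigp1 was 14.92 in B6C3F1/J controls, above 14.91 in C57BL6/J and 14.86 in C3H/HeJ. Control replicate 2 was also the lowest of its group for Igtp, Irgm2 and Ifi47. The B6C3F1/J control medians of these genes, 11.29, 9.93 and 10.05, were below those of both parents. Whether the probes match all 6 strains equally was not tested, and strain levels of a gene rest on that.

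A few restricted mice carried high levels of most members at once. Taking mice with 5 or more members at least 1 log2 unit above their group's median, a count that was set after the values had been seen, there were 4, all of them restricted, and 0 among the controls. They were 129S1/SvImJ restricted replicates 5 and 6, each with 8 members, C3H/HeJ restricted replicate 4 with 6, and CBA/J restricted replicate 7 with 6. C3H/HeJ restricted replicate 4 had the highest signal of its group for 10 of 10 members. In the other direction, C57BL6/J control replicate 1 had 6 members at least 1 log2 unit below its group's median. No other mouse had 5 or more members that low. In 129S1/SvImJ, Gbp6 stood at 9.86 and 9.83 in the 2 high mice and between 6.61 and 7.22 in the other 6 restricted mice, where the controls ran from 7.31 to 8.57. Igtp stood there at 11.36 and 11.44, and between 9.89 and 10.30 in the other 6. These 6 lay below every control for both genes, and the 2 high mice lay above every control.

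**Figure D4:**
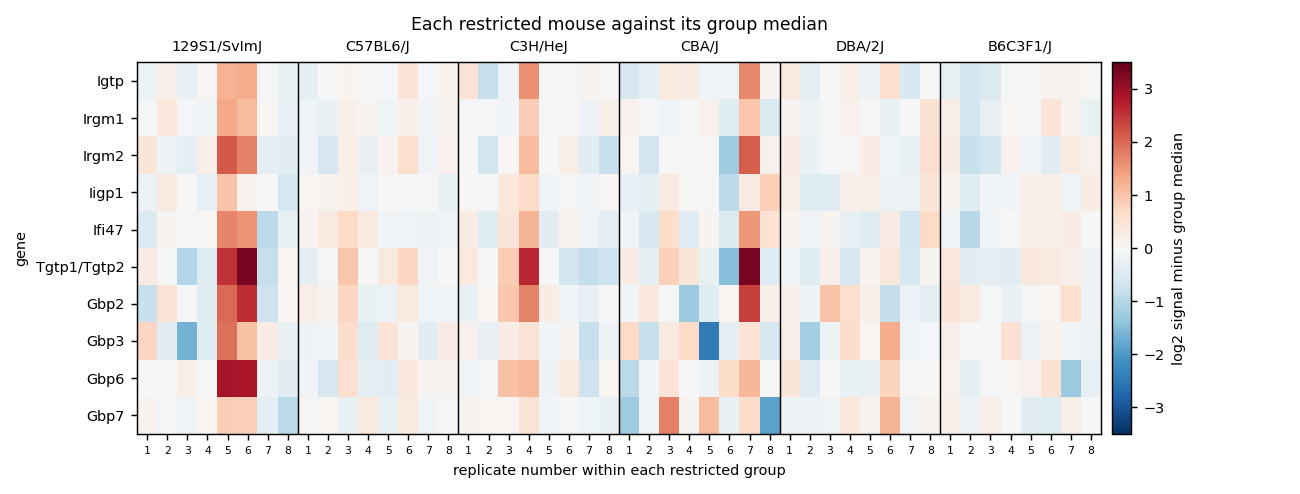
Log2 signal of each of the 10 genes (lines) in the 48 restricted mice (columns, by strain and replicate number) minus the median of the mouse's group. The columns of 129S1/SvImJ replicates 5 and 6, C3H/HeJ replicate 4 and CBA/J replicate 7 are raised over most of the 10 genes.

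The high mice also differed from one another in other genes. Cxcl9, a T cell-attracting chemokine induced by interferon-gamma, lay 3.76, 2.78, 0.87 and 2.87 above the group median in 129S1/SvImJ replicates 5 and 6, C3H/HeJ replicate 4 and CBA/J replicate 7. Ifit1, a type I interferon-stimulated gene, lay 1.40, -0.73, 0.59 and -0.06 from it in the same order. Single genes do not stand for their lists. The median deviation of the 6 named type I interferon-stimulated genes was 0.53, -0.48, 0.11 and 0.55. For the 8 named interferon-gamma targets other than GTPases it was 0.50, 0.23, 0.66 and 1.12. For 5 T cell markers it was -0.10, -0.0012, 0.56 and -0.43, and for 8 natural killer markers 0.55, 0.08, 0.98 and -0.02. All 9 of 9 Kupffer markers were at least 1 above the group median in C3H/HeJ replicate 4, with a median deviation of 1.70, against 4, 1 and 2 of 9 in the other mice in the same order. The median log2 signals of these 4 arrays were 6.64, 6.79, 6.399 and 7.28, each inside the range of the 94 arrays. The part of Kupffer marker level in the members' level was not tested, and no note on health or infection is used here.

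Across all mice the members varied together after the group means had been removed, a measure that the choice of genes did not use. Over the 96 deviations all 45 pairs of members had a Pearson r above 0, from 0.20 to 0.78 with a median of 0.49. With Igtp as the reference, r was 0.78 for Irgm2, 0.76 for Tgtp1/Tgtp2, 0.76 for Ifi47, 0.69 for Irgm1 and 0.65 for Gbp6. It was 0.50 for Gbp7, 0.48 for Iigp1, 0.44 for Gbp2 and 0.43 for Gbp3. Over all other genes, r with Igtp had a median of 0.009 and 5th and 95th percentiles of -0.17 and 0.19. For pairs among all genes such a range is not given here. Spearman's rho lay between 0.33 (Gbp2) and 0.66 (Ifi47). For these 9 relations the two-sided permutation p, from 100000 draws within groups, ran from 1e-05, the smallest they can give, to 0.0006 for r and to 0.003 for rho. Adjusted over the 9, the values ran from 1.8e-05 to 0.0006 for r and from 1.5e-05 to 0.003 for rho.

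Leaving out the 2 mice farthest from the median in Igtp, CBA/J restricted replicate 7 and C3H/HeJ restricted replicate 4, left r between 0.31 (Gbp2) and 0.72 (Irgm2). 129S1/SvImJ restricted replicates 5 and 6, also high for most members, stayed in, and r without every high mouse is not given here. With the array median removed from the deviations, r lay between 0.44 (Gbp3 and Gbp2) and 0.78 (Irgm2). All deviations of a mouse share 1 array and 1 piece of liver. By r, Irgm2, Tgtp1/Tgtp2, Ifi47, Irgm1 and Gbp6 were closer to Igtp in these values than Gbp7, Iigp1, Gbp2 and Gbp3 were. Each of the 2 families thus had genes in both parts of this order, and the differences between correlations were not tested.

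Other genes with the most similar pattern were found by correlating each gene with the mean of the members' standardised values. Over the 12 group means, which share the choice of members, the 8 highest were Zbp1 (r = 0.91), Ifit1 (0.91), Usp18 (0.89), Rsad2 (0.89), Ifit2 (0.89), Irf9 (0.88), Cstf3 (0.85) and Proca1 (0.84), where the 5th and 95th percentiles of all genes were -0.55 and 0.49. Over the 96 deviations the 8 highest were H2-Aa (0.73), H2-Eb1 (0.73), Cxcl9 (0.69), BC023105 (0.69), Mpeg1 (0.69), Ifit3 (0.64), Ctss (0.62) and Psmb9 (0.61), where these percentiles were -0.19 and 0.21. H2-Aa, an MHC class II chain, had r = 0.11 over the group means, and Zbp1 had r = 0.55 over the deviations.

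Genes of the interferon pathways that are not GTPases of these families were tested in the same fit. Of 12 measured genes that carry or control the interferon-gamma signal, 0 were called lower and 2 higher on average, with a median difference of 0.07. Of all genes 12.4% were called lower and 15.2% higher, so the count of 2 higher is near the share over all genes. The called genes were Il18, a cytokine that induces interferon-gamma, at 0.57 ± 0.07 (adjusted p = 2.64e-11 in limma), and the receptor subunit Ifngr1 at 0.19 ± 0.07 (adjusted p = 0.0401). The Ifngr1 call was lost under 8 of 13 alternatives. Ifngr2 was at -0.10 ± 0.12, the transcription factor Irf1 at 0.15 ± 0.06 (adjusted p = 0.0588) and the feedback inhibitor Socs1 at 0.02 ± 0.32, none of them called. At an unadjusted p under 0.05, 1 of the 12 was lower and 5 higher.

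Of 28 measured interferon-gamma targets other than GTPases, 0 were called lower and 8 higher on average, with a median of 0.12 (unadjusted, 0 lower and 9 higher). The shares of all genes were 12.4% lower and 15.2% higher. Upp1, uridine phosphorylase, was at 0.96 ± 0.18 (adjusted p = 1.06e-05 in limma), the immunoproteasome subunit Psmb10 at 0.53 ± 0.08 (1.25e-08), the aminopeptidase Lap3 at 0.40 ± 0.09 (0.000473) and Cxcl9 at 0.63 ± 0.17 (0.0025). Genes that did not pass included Cxcl10, a second chemokine, at -0.49 ± 0.28, the peptide transporter Tap1 at -0.01 ± 0.09, the immunoproteasome subunit Psmb8 at 0.13 ± 0.08 and the MHC class I activator Nlrc5 at 0.20 ± 0.09. In C57BL6/J alone the same list had 4 called lower, where 1.86% of all genes were, and 0 higher, with a median of -0.37. Tap1 fell there by 0.83 (adjusted p = 0.0202 in limma). The 5 other measured members of the 2 GTPase families had 1 called lower, Gm4951 at -0.33 ± 0.08 (adjusted p = 0.000462), and 0 higher.

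Of 27 measured type I interferon-stimulated genes, 16 were called lower, 3 higher and 8 in neither direction, with a median of -0.35. Of all genes 12.4% were called lower and 15.2% higher. Ifit1, which binds foreign RNA, was at -1.51 ± 0.14 (adjusted p = 2.23e-16 in limma) and Rsad2, viperin, at -1.08 ± 0.12 (8.12e-13), and both were lower in 6 of 6 strains. Dtx3l, a ubiquitin ligase, fell by 0.39 (5.92e-12). Those called higher were Bst2 at 0.71 ± 0.12, Oas1a at 0.54 ± 0.10 and Ifi27 at 0.52 ± 0.09 (adjusted p = 1.54e-06, 8.31e-06 and 2.3e-06). Of 8 genes of the type I signal, Irf9, the DNA-binding subunit that reads the ISRE, was at -0.72 ± 0.08 (6.54e-13) and the receptor subunit Ifnar2 at -0.42 ± 0.08 (3.16e-05), and the kinase Tyk2 was higher at 0.23 ± 0.09 (0.0347). The Ifnar2 call was lost when its probe sets were averaged (adjusted p = 0.645), and the Tyk2 call under 3 of 13 alternatives. Irf7, the type I amplifier, was at 0.18 ± 0.08 (0.0781) and was not called. Some of these genes were among those whose response was already known when the lists were chosen, so their direction is not independent evidence.

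**Figure D5:**
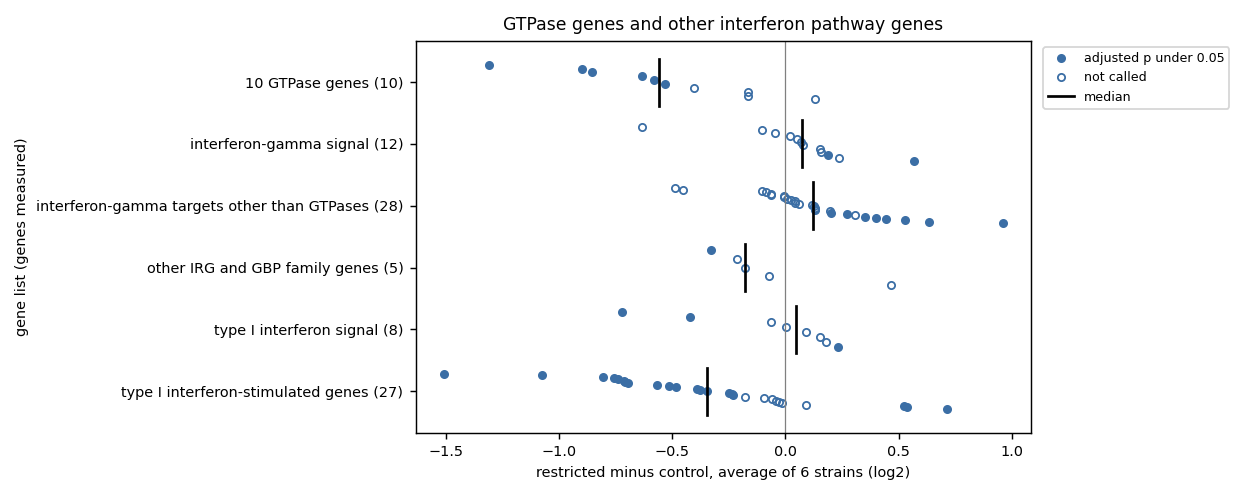
Averaged restricted minus control difference in log2 signal for the 10 GTPase genes and for each measured gene of 5 interferon pathway lists, with called genes filled and the median of each list as a bar. The medians are -0.56 for the GTPase genes, -0.35 for the type I interferon-stimulated genes and 0.12 for the interferon-gamma targets other than GTPases.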

How the data were processed

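Liver RNA of 96 mice was measured on 1 array each, grouped by the labels. The authors deposited 1 linear intensity per probe set, made with MAS5 per the submitters' processing notes, and its version and parameters are not given in the sources used. The trimmed mean of each array, leaving out 2% of probe sets at each end, lay between 500.001 and 500.005, and no other normalization was visible.

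Signals were turned into log2 values in R 4.3.3. From 45101 probe sets, 64 controls were removed and the 32999 at or above the array median on at least 8 arrays were kept. The brightest kept probe set by mean stood for a gene, which gave 14816 genes and the 1 shared probe set. limma 3.58.1 fitted a mean for each of 12 groups, with eBayes (trend, robust) and Benjamini-Hochberg adjustment over all 14817 features. SEs are limma's, and the number of arrays limits their precision. The labels say that replicates are separate mice. The fit was checked on simulated data.

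The members and lists were chosen with earlier results of these data known. Named genes were all members, a fixed set of pathway genes, up to 3 genes with the smallest p in each direction of each list, and the 8 genes most like the members in each of 2 measures. The alternatives concerned scaling, an offset of 8.55, the filter, the choice of probe set, the variance model, array weights, a block for replicate number, the array median and left-out arrays or strains. Permutations were drawn with numpy 2.4.6 in Python 3.11.15, and plots with matplotlib 3.10.9. Of the listed genes, those without a usable probe set were not analysed here.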

Additional observations from a re-analysis of the deposited data

Results flagged for a closer look

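In 16 of the 120 combinations of member and group, 1 mouse stood apart from the other 7 by a gap, as a share of the group's range, above Dixon's critical value for 8 samples. Chance gives about 1 in 20 for independent sets of values. The members share the same arrays and varied together, so the flags are not independent and no excess is read from their number. CBA/J restricted replicate 7 was high for Igtp (gap 0.590 of the range), Irgm1 (0.552), Irgm2 (0.588) and Gbp2 (0.551), and C3H/HeJ restricted replicate 4 was high for Irgm1 (0.637). B6C3F1/J control replicate 2, an array with a median log2 signal above 8, was low for Igtp (0.760), Irgm1 (0.717), Iigp1 (0.777) and Ifi47 (0.539). DBA/2J restricted replicate 6, the other array with such a median, was high for Gbp7 (0.587). The remaining mice were 129S1/SvImJ control replicate 1, high for Irgm2 (0.604), and C3H/HeJ control replicate 6, low for Iigp1 (0.579). B6C3F1/J restricted replicate 2 was low for Ifi47 (0.681) and restricted replicate 7 low for Gbp6 (0.541). C57BL6/J control replicate 1 was low for Gbp3 (0.710) and CBA/J control replicate 4 low for Gbp6 (0.727).

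The diet response differed between strains for 10 of 24 named pathway genes by the interaction test in limma, where 23.9% of all genes were called. The adjusted p was 2.88e-05 for Irf1, with strain differences from -0.40 (C57BL6/J) to 0.92 (CBA/J), and 3.02e-06 for Irf7, from -0.60 (C57BL6/J) to 1.07 (CBA/J). It was 8.71e-05 for Tap1, from -0.83 (C57BL6/J) to 0.88 (CBA/J), 0.000952 for Psmb8, from -0.54 (DBA/2J) to 0.75 (129S1/SvImJ), and 0.000211 for Psmb10, from -0.10 (DBA/2J) to 1.22 (129S1/SvImJ). Among type I interferon-stimulated genes it was 0.0105 for Ifit1, from -2.39 (C57BL6/J) to -0.70 (CBA/J), 0.000224 for Oas1a, from -0.44 (C57BL6/J) to 1.504 (CBA/J), and 0.0111 for Ifi27, from 0.00 (C57BL6/J) to 1.21 (CBA/J). It was 0.0273 for Bst2, from -0.02 (DBA/2J) to 1.32 (CBA/J), and 0.000528 for Dtx3l, from -0.89 (CBA/J) to -0.14 (C3H/HeJ). CBA/J, whose array medians moved with diet, gave 1 end of the range in 8 of these 10 genes. Without CBA/J 1.55% of all genes were called, and the calls of these 10 genes without it are not given here.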

How the results depend on the processing

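The members' averaged differences moved by less than 1 SD in all 130 alternative values. The count of 6 members called lower on average changed by no more than 1.5 times under any of the 13 alternatives. It was 6 to 7 with each array left out in turn, which was added after seeing the data. Of 830 single-strain values, 5 moved further: Iigp1 in CBA/J with both probe sets averaged, with every probe set or with the array median as covariate, and Gbp6 in 129S1/SvImJ and CBA/J with every probe set. Replicate numbers did not pair the mice (5 of 48 same-strain pairs correlated above 0.1), and the replicate block changed no count of calls by over 1.5 times, with 1852 genes called lower on average against 1840. Without CBA/J the genes called fell to 1203 lower (1840 with it), 1387 higher (2246) and 229 for the interaction (3535), and the interferon-gamma targets called higher to 5 (8). Members called lower in 129S1/SvImJ were 2 with arrayWeights and 1 without the 2 arrays with a median above 8, against 0; in C3H/HeJ 0 with 75th percentile centring and 3 with arrayWeights, against 1; in CBA/J 1 with arrayWeights, 0 with the array median as covariate and 1 in a fit of that strain alone, against 3; and in B6C3F1/J 1 with 75th percentile centring, 5 with arrayWeights, 4 without the 2 arrays and 4 with the array median as covariate, against 2. With single arrays left out these counts ran from 0 to 2 in 129S1/SvImJ (2 without restricted replicate 5), 8 to 9 in C57BL6/J, 0 to 1 in C3H/HeJ, 0 to 4 in CBA/J (0 without restricted replicate 2), 6 in DBA/2J throughout and 2 to 4 in B6C3F1/J (4 without control replicate 2). With arrayWeights 1 interferon-gamma target was called lower, against 0. The cause of these changes was not tested.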
